A study of Mus musculus with 2 samples.

Results

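The 6 genes described here handle iron and haem, and they were taken by gene symbol from the 32285 genes of the deposited matrices: Hmox1, Blvrb, Fth1, Ftl1, Slc40a1 and Tfrc. All 6 were measured in pancreatic islet immune cells of female NOD mice, the strain that develops autoimmune diabetes, at 12 weeks of age. The study compared NOD mice with NOD.Cxcl16-/- mice, which are labelled as lacking Cxcl16, a chemokine that is also a scavenger receptor of myeloid cells. Islets were freed with collagenase, picked by hand and dispersed without enzymes, and live CD45+CD31- cells were sorted for droplet-based 3′ RNA sequencing. Each genotype gave 1 library, and the number of animals behind a library was not stated in the labels. With 1 library a group no test between genotypes is possible, so the intervals below are 95% intervals that cover counting error only. PCR, dissociation and animal-to-animal variation are outside them, and intervals on molecule counts also leave out cell-to-cell variation.

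Haem is broken down by haem oxygenase, which frees its iron and makes biliverdin, and biliverdin reductases then turn biliverdin into bilirubin. Freed iron is held in ferritin, a shell built of heavy and light chains, or leaves the cell through ferroportin, while transferrin-bound iron enters through the transferrin receptor. Macrophages are known for recycling the haem iron of red cells, and dividing lymphocytes for taking up transferrin iron.

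Of the 6 genes, 4 carry a known layer of control in their RNA: iron regulatory proteins bind short hairpins, which hold back translation when they lie in a 5′ UTR and protect the message when they lie in a 3′ UTR. RNA levels therefore do not give protein levels for these genes. The hairpin letters are shown because they separate the members by how their RNA is regulated. A script searched the GENCODE M21 transcripts (GRCm38, C57BL/6J and not NOD) for the 17-base pattern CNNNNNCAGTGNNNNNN whose 5 bases on each side of the loop could pair, G with T allowed. The transcript strand alone was searched, no overlap with another motif was asked for, and 31 of 21951 protein-coding genes (0.141%) held a match in a 5′ UTR and 144 (0.656%) in a 3′ UTR. In each line below the 6 capitals are the loop, within 29 bases read 5′ to 3′.
Fth1, 5′ UTR: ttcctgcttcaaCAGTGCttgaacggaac
Ftl1, 5′ UTR: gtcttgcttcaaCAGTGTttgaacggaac
Slc40a1, 5′ UTR: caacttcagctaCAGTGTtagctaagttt
Tfrc, 3′ UTR, site 1: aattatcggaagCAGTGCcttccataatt
Tfrc, 3′ UTR, site 2: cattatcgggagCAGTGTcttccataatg
Tfrc, 3′ UTR, site 3: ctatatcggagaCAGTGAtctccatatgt
Tfrc, 3′ UTR, site 4: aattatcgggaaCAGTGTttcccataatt
The Fth1 hairpin lay in exon 1 of 4 at chr19:9982732-9982760 on the plus strand. That of Ftl1 lay in exon 1 of 4 at chr7:45459779-45459807 on the minus strand, and that of Slc40a1 in exon 1 of 8 at chr1:45925465-45925493 on the minus strand. The Tfrc sites lay in exon 19 of 19 on the plus strand, at chr16:32631219-32631247, chr16:32631598-32631626, chr16:32631663-32631691 and chr16:32631710-32631738. The Fth1 and Ftl1 sites had 26 of 29 bases in common, the Fth1 and Slc40a1 sites 13 of 29, and the Tfrc sites 18 to 25 of 29 among themselves. Hmox1 and Blvrb held no match, which says only that these letters are not in their annotated UTRs.

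The WT NOD library had 13859 barcodes with 93553185 UMIs (unique molecule counts) in all, and the library labelled NOD.Cxcl16-/- had 10554 barcodes with 98681133. After filters, 10921 and 9375 cells remained, with medians of 3944 and 4908 UMIs, and 45 barcodes occurred in both libraries. Cells were assigned to 19 types by marker genes, none of which is a member, and barcodes with markers of several lineages (11.85% and 8.661% of kept cells) entered no type. The macrophage-like gate held 61 cells (0.559%; exact binomial interval 0.428% to 0.717%) and 154 cells (1.64%; 1.40% to 1.92%). Its 9 markers summed to 13480 and 16180 CPM (UMIs of a gene scaled to 1000000 UMIs of the type), against 21.9 and 24.7 CPM in resting T cells, and C1qa, C1qb and C1qc led its genes. The Cxcl16 transcript was present in the library labelled NOD.Cxcl16-/-, at 532 CPM in macrophage-like cells against 881 CPM in the WT NOD library. The labels do not say which part of the gene was deleted, so 3′ counts may not test the label, and no direction below is given to the genotype.

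**Figure D1:**
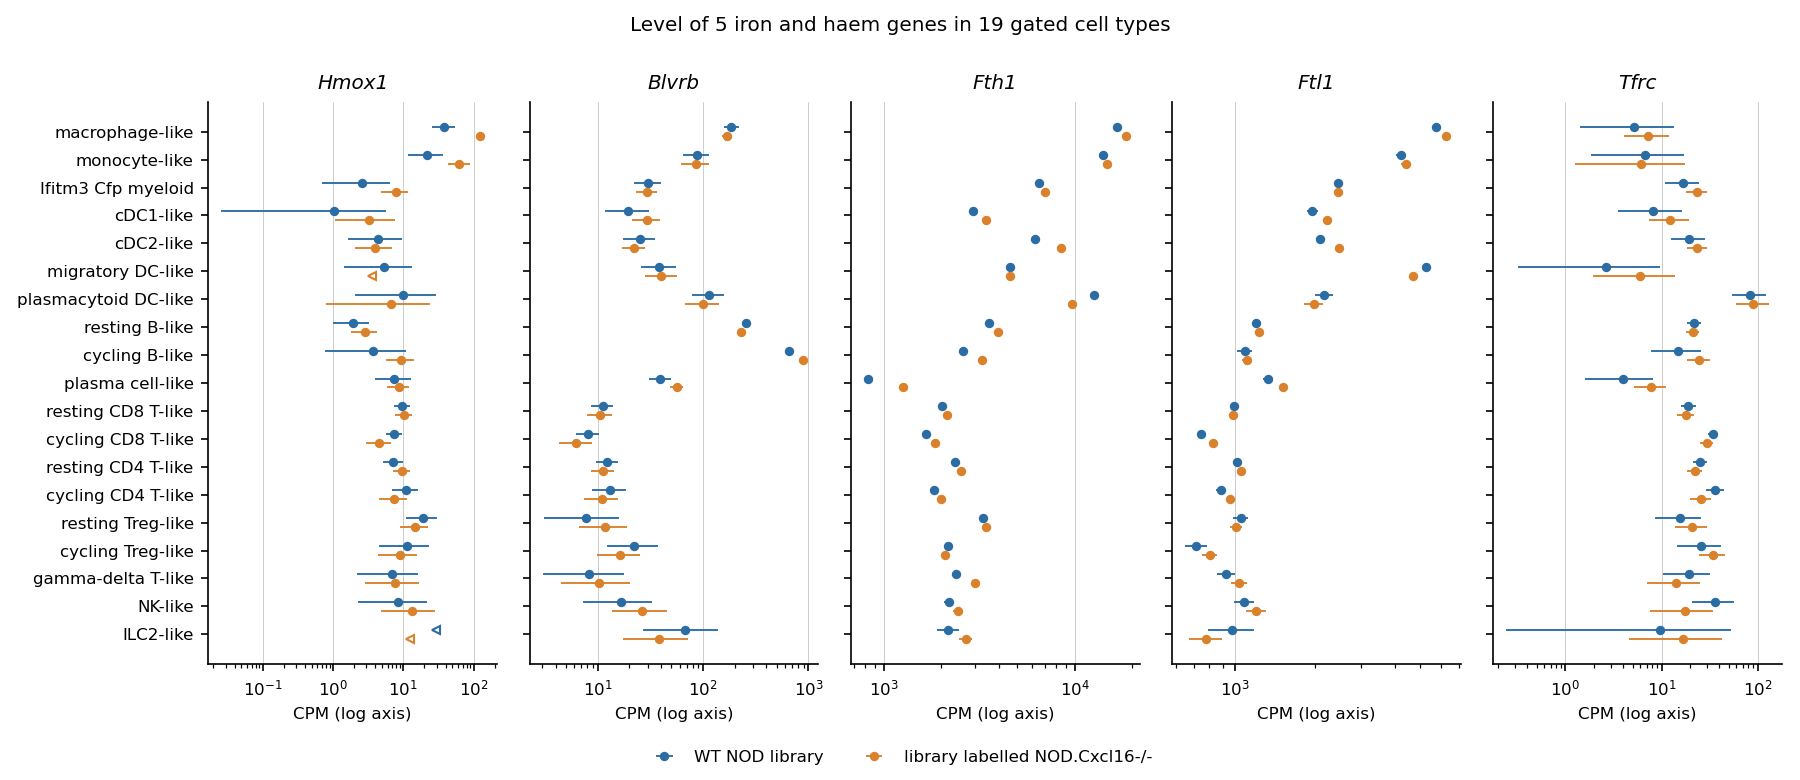
CPM on a log axis of Hmox1, Blvrb, Fth1, Ftl1 and Tfrc in the 19 marker-gated cell types, with 1 point per library, exact Poisson 95% intervals, and an open triangle at the level of 3 UMIs where a type held none. Hmox1 and ferritin lead in macrophage-like cells, Blvrb in cycling B-like cells and Tfrc in plasmacytoid dendritic cell-like cells.

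Hmox1 encodes the inducible haem oxygenase (ENSMUSG00000005413, chr8:75093621-75100589 on the plus strand of GRCm38). Its level was highest in macrophage-like cells of both libraries, at 37.7 CPM in the WT NOD library (29 UMIs; interval 25.3 to 54.2) and 124 CPM in the library labelled NOD.Cxcl16-/- (255 UMIs; 109 to 140.0). Monocyte-like cells came next with 21.8 and 62.7 CPM, followed in both libraries by resting regulatory T (Treg)-like cells with 18.8 and 14.7 CPM (17 and 20 UMIs). Their place is not settled at such counts, as natural killer-like cells had 8.40 and 13.1 CPM on 4 and 6 UMIs. Macrophage-like and monocyte-like cells stood above the larger lymphoid groups. Pooled resting T cells had 9.46 and 10.1 CPM, cycling T cells 8.24 and 5.97 CPM, and resting B-like cells 1.91 and 2.83 CPM. Conventional dendritic cells were low, with 4.42 and 4.02 CPM in type 2 (cDC2-like; 6 and 12 UMIs) and 1.03 and 3.26 CPM in type 1 (cDC1-like; 1 and 5 UMIs). The plasmacytoid type had 10.0 and 6.67 CPM on 3 and 2 UMIs, too few to rank it. Migratory dendritic cell-like cells had 5.28 CPM and then 0, where 3 UMIs would have been 3.55 CPM. No Hmox1 UMI was found in the 22 and 52 cells gated as group 2 innate lymphoid (ILC2)-like.

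Macrophage-like cells had 3.99 times the Hmox1 of resting T cells in the WT NOD library (interval 2.59 to 5.94) and 12.3 times in the library labelled NOD.Cxcl16-/- (10.1 to 15.02). The transcript was concentrated in few cells. A UMI was found in 14 of 61 macrophage-like cells (23.0%) and in 73 of 154 (47.4%), but 3 or more UMIs were found in 3 and 26 cells. The top 5 cells held 20 of the 29 UMIs in the WT NOD library and 107 of the 255 in the other, and a single cell held 7 and 64. With each cell thinned to 2000 UMIs, 4 of 59 cells (6.78%; exact binomial interval 1.88% to 16.5%) and 21 of 151 (13.9%; 8.82% to 20.5%) held a UMI, and these intervals overlap. As a background, thinned resting B-like cells, which should carry little Hmox1, gave 0.296% and 0.368% (unthinned medians of 4462 and 4463 UMIs, against 12695 and 12181 in macrophage-like cells). Thinned resting T cells gave 1.59% and 2.37% and resting Treg-like cells 3.57% and 3.48%, so the T-cell signal was above that of B cells.

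**Figure D2:**
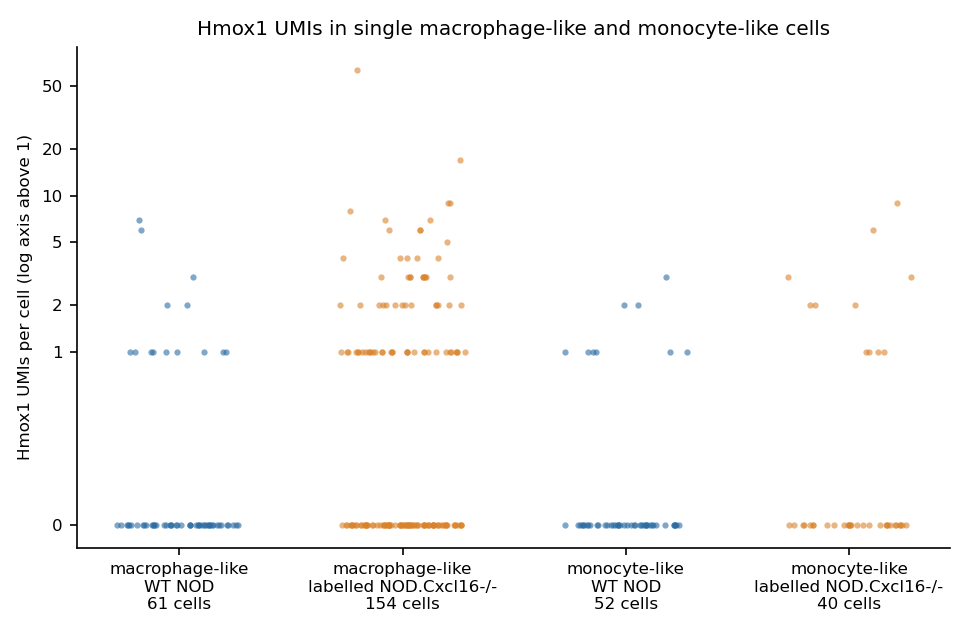
Hmox1 UMIs of each macrophage-like and monocyte-like cell, on an axis that is log above 1, with 1 point per cell and the libraries side by side. Most cells have no UMI, and 26 macrophage-like cells labelled NOD.Cxcl16-/- hold 3 or more, against 3 of the WT NOD library.

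Between the libraries, Hmox1 in macrophage-like cells was 3.28 times as high in the library labelled NOD.Cxcl16-/- (interval 2.23 to 5.00), a log2 difference of 1.69. It was the 1 member of 4 compared that differed 1.5-fold or more there, where 11.1% of 8071 genes were that much higher and 20.7% differed either way. Without the top cell of each library the levels were 29.4 and 93.4 CPM. Monocyte-like cells differed the same way, 2.88 times (1.47 to 5.998; 13 and 31 UMIs), again as 1 member of 4, where 14.7% of genes were higher by that rule. Monocyte-like cells thinned to 2000 UMIs gave 48.1 and 50 CPM, a log2 difference of 0.06, on so few UMIs that no order can be read from them. In this gate the 7 islet endocrine markers summed to 7143 and 277 CPM and the 10 cell-cycle markers to 131 and 399 CPM, and their part in the difference was not tested. In the 47 and 37 monocyte-like cells with fewer than 10 islet hormone UMIs per 10000, Hmox1 was 24.4 and 67.0 CPM. The Ifitm3 Cfp myeloid cells were gated on UMIs of Ifitm3, Cfp and Ms4a6c and met no other gate. They had 2.57 and 7.76 CPM (4 and 22 UMIs, 3.02 times, 1.03 to 12.1), where 8.27% of genes were higher. With markers counted in thinned cells their log2 difference was -1.76 in place of 1.30. Cycling CD8 T-like cells went the other way, with 7.49 and 4.54 CPM (0.607 times; 0.363 to 0.985), where 2.9% of genes were lower, but the log2 difference of -0.61 shrank to -0.23 with cells thinned to 2000 UMIs, short of the rule.

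Several measures moved beside the macrophage difference, and their part in it was not tested. The 7 islet endocrine markers summed to 6497 and 10940 CPM in macrophage-like cells, with 3 of 7 detected in 20% or more of the cells and Ppy at 0 in the WT NOD library. In cells with fewer than 10 islet hormone UMIs per 10000 (49 and 86 cells), Hmox1 was 41.9 and 140 CPM, a log2 difference of 1.71. The T-cell list of 6 markers summed to 33.8 and 42.3 CPM and the B-cell list of 7 to 33.8 and 27.7 CPM, and in the 33 and 92 cells with no UMI of either list Hmox1 was 34.7 and 164 CPM. All 6 erythroid markers, haemoglobin genes among them, were at 0 in macrophage-like and monocyte-like cells of both libraries. The 6 neutrophil markers summed to 29.9 and 23.8 CPM in macrophage-like cells, the 7 migratory dendritic cell markers to 271 and 139 CPM and the 8 monocyte markers to 1019 and 779 CPM. Most Hmox1 of the sort lay outside this gate: barcodes with markers of several lineages held 712 of the 1452 Hmox1 UMIs of the library labelled NOD.Cxcl16-/- (49.0%) and 80 of 531 (15.1%) in the WT NOD library. Keeping such barcodes with their leading lineage gave 125 and 395 macrophage-like cells with 41.0 and 83.5 CPM, a log2 difference of 1.01.

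Blvrb encodes biliverdin reductase B, which also reduces flavins (ENSMUSG00000040466, chr7:27447978-27466144 on the plus strand). Unlike Hmox1, it was highest in B cells. Cycling B-like cells had 651 CPM in the WT NOD library (525 UMIs; interval 596 to 709) and 891 CPM in the library labelled NOD.Cxcl16-/- (1944 UMIs; 852 to 931), resting B-like cells 258 and 230 CPM, and macrophage-like cells 186 and 170 CPM. Plasmacytoid dendritic cell-like cells followed with 114 and 100.1 CPM and monocyte-like cells with 87.1 and 85.0 CPM, which do not differ from each other beyond counting error at these depths. At the low end were pooled resting T cells with 12.4 and 11.5 CPM and cycling T cells with 10.0 and 8.45 CPM. Resting B-like cells thus had 20.8 times (18.1 to 24.1) and 19.98 times (17.2 to 23.3) the Blvrb of resting T cells, and Blvrb was the 1 member of 5 compared that was 2-fold or more higher in both libraries, where 6.84% of genes were. Hmox1 was the 1 member lower by that rule, beside 11.3% of genes.

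Cycling B-like cells (50 and 94 cells) had 2.52 times (2.28 to 2.78) and 3.88 times (3.64 to 4.13) the Blvrb of resting B-like cells. Of 5 members compared, 2 were 1.5-fold or more higher in both libraries, Blvrb and Hmox1, where 13.6% of genes were; the Hmox1 count there was 3 and 20 UMIs. At 2000 UMIs per cell, 51.0% and 59.8% of cycling B-like cells held a Blvrb UMI, against 38.1% and 36.9% of resting B-like cells and 2.44% and 2.40% of resting T cells. Of the erythroid list, Hbb-bt alone had UMIs in cycling B-like cells, 20 and 90, and the part of that RNA in the Blvrb level was not tested.

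Fth1 encodes the ferritin heavy chain, the subunit that oxidises iron for storage (ENSMUSG00000024661, chr19:9980598-9985098 on the plus strand). It was by far the most counted member, with 16710 CPM in WT NOD macrophage-like cells and 18520 CPM in those of the library labelled NOD.Cxcl16-/-. Monocyte-like cells had 14030 and 14740 CPM and plasmacytoid dendritic cell-like cells 12650 and 9753 CPM. A step down were cDC2-like cells with 6212 and 8533 CPM, the Ifitm3 Cfp myeloid cells with 6492 and 7024 CPM, and migratory dendritic cell-like cells with 4590 and 4611 CPM. Lymphocytes were lower: 3577 and 3959 CPM in resting B-like cells, 3300 and 3435 CPM in resting Treg-like cells, 2328 and 2508 CPM in pooled resting T cells and 1767 and 1977 CPM in cycling T cells. Plasma cell-like cells were lowest by CPM over all UMIs, with 827 and 1254 CPM, which puts the span from the lowest to the highest type at 20.2-fold and 14.8-fold. That span depends on scaling, as given below. Among single macrophage-like cells, the middle 50% ran from 12510 to 18580 CPM with a median of 14830 in the WT NOD library, and from 13070 to 23070 CPM with a median of 17250 in the other, so the cells of the libraries overlap widely.

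Ftl1 encodes the ferritin light chain, which helps form the iron core (ENSMUSG00000050708, chr7:45457944-45459884 on the minus strand). Its values are uncertain to the extent that its reads could not be told apart from those of the near-identical copy Ftl1-ps1. Ftl1-ps1 had 72.9 and 114 CPM in macrophage-like cells. Ftl1 was again highest in macrophage-like cells, at 5735 and 6225 CPM. Migratory dendritic cell-like cells were second with 5252 and 4698 CPM, ahead of monocyte-like cells with 4214 and 4414 CPM. The Ifitm3 Cfp myeloid cells had 2438 and 2447 CPM, cDC2-like cells 2094 and 2469 CPM, and plasmacytoid dendritic cell-like cells 2177 and 1985 CPM. Resting B-like and resting T cells lay close together, at 1200 and 1230 CPM and at 1044 and 1049 CPM, and cycling Treg-like cells had 715 and 805 CPM. Fth1 and Ftl1 together made up 2.24% and 2.48% of all UMIs of macrophage-like cells, 1.83% and 1.92% in monocyte-like cells and 0.216% and 0.278% in plasma cell-like cells.

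The balance of the chains differed more between cell types than between libraries. The ratio of Fth1 to Ftl1 UMIs compares molecules tagged at the 3′ end, which need no length correction. Capture may differ between genes, and the Ftl1-ps1 limit given above holds for the ratio too. The ratio was highest in plasmacytoid dendritic cell-like cells, at 5.81 (interval 5.35 to 6.33) and 4.91 (4.50 to 5.37). Macrophage-like cells had 2.91 and 2.98, monocyte-like cells 3.33 and 3.34, resting B-like cells 2.98 and 3.22 and resting T cells 2.23 and 2.39. The dendritic types spread out widely, with 2.97 and 3.46 in cDC2-like, 1.502 and 1.552 in cDC1-like and 0.874 and 0.982 in migratory dendritic cell-like cells. Plasma cell-like cells had the lowest ratio, 0.622 and 0.822. Ratios below 1 in both libraries were thus found in the migratory dendritic and plasma cell-like types, though the interval of the second migratory value (0.939 to 1.03) includes 1. These plasma cell levels depend on scaling, because immunoglobulin, antigen receptor, mitochondrial, ribosomal protein and haemoglobin genes took 57.25% and 53.36% of plasma cell UMIs against 34.75% and 32.99% in resting B-like cells. Over the remaining UMIs, Fth1 was 1934 and 2689 CPM in plasma cell-like against 5482 and 5909 CPM in resting B-like cells, still lower, while Ftl1 was 3110 and 3271 against 1839 and 1835 CPM, higher. Macrophage-like cells had 20440 and 22840 CPM of Fth1 on that scale, a narrower span from plasma cell-like cells than over all UMIs.

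**Figure D3:**
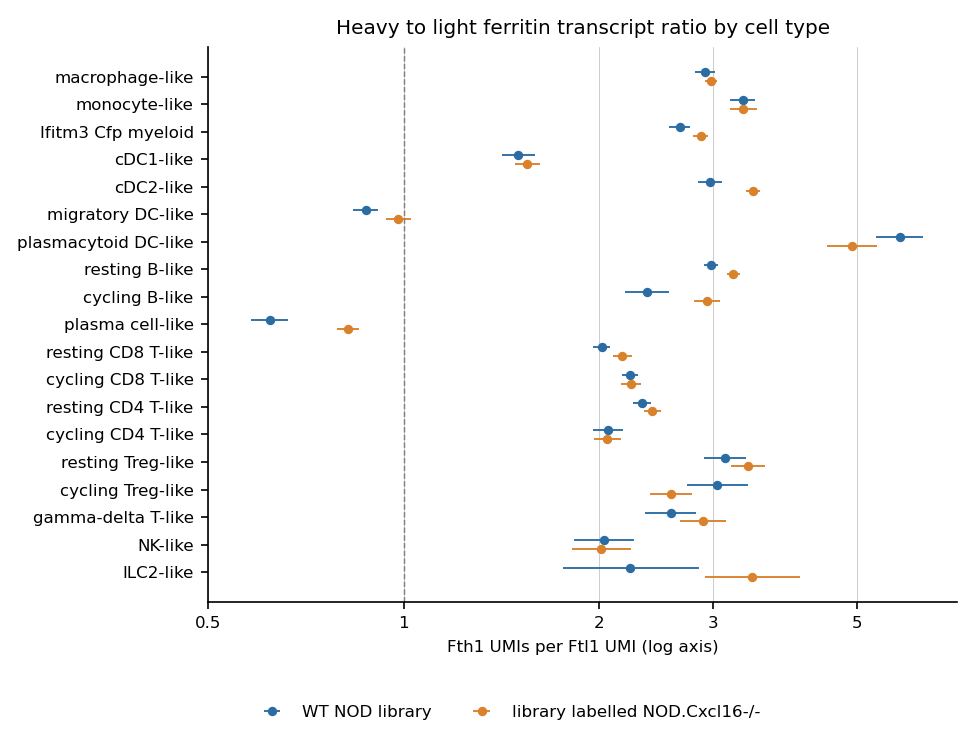
Ratio of Fth1 UMIs to Ftl1 UMIs on a log axis in each cell type, with 1 point per library, exact 95% intervals and a line at equal counts. Plasmacytoid dendritic cell-like cells lie at the top (5.81 and 4.91) and plasma cell-like cells at the bottom (0.622 and 0.822).

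Between the libraries ferritin differed by less than 1.5-fold in every type but plasma cell-like cells. Fth1 was higher in the library labelled NOD.Cxcl16-/- in 17 of 19 types, with a median log2 difference of 0.14, and Ftl1 in 14 of 19, with a median of 0.07. Fth1 there was 1.37 times as high in cDC2-like cells (1.34 to 1.41) and 0.771 times in plasmacytoid dendritic cell-like cells (0.734 to 0.809). The largest Fth1 difference was in plasma cell-like cells (1.52 times, 1.43 to 1.61), where Fth1 and Tfrc were the 2 of 5 members 1.5-fold or more higher, beside 17.8% of genes. The Fth1 difference fell short of that rule with doublets kept (log2 0.46) and with immunoglobulin and the other genes named above left out of the total (0.48), against 0.60. Single plasma cell-like cells had median Fth1 levels of 562 and 664 CPM and upper quartiles of 892 and 1140 CPM. Cxcl16 had 8 and 133 UMIs (4.56 and 36.8 CPM) in the same gate. The part of other cells' RNA in the Fth1 difference was not tested. Over all genes the median log2 difference in plasma cell-like cells was itself 0.17, and the Tfrc difference there rested on 7 and 28 UMIs and was -1.66 in place of 0.81 on the log2 scale with cells thinned to 2000 UMIs.

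Slc40a1 encodes ferroportin, the iron exporter (ENSMUSG00000025993, chr1:45908068-45926523 on the minus strand). It was close to undetected: Slc40a1 had 2 UMIs over all kept WT NOD cells, and 4 over those of the library labelled NOD.Cxcl16-/-. Macrophage-like cells held 0, where 3 UMIs would have been 3.90 and 1.46 CPM. Pooled resting T cells, with far more UMIs, also held 0, where 3 UMIs would have been 0.170 and 0.179 CPM. After thinning, 0 of 59 and 0 of 151 macrophage-like cells held a UMI, which allows shares of cells with a UMI of up to 5.09% and 1.99% by the limit of 3 counts, and up to 6.06% and 2.41% by the exact binomial interval. In the WT NOD library both UMIs were in cells that met no gate, and in the other 2 were in barcodes of mixed lineage, 1 in a cell that met no gate and 1 in an Ifitm3 Cfp myeloid cell. No fold can be given from such counts. Spic, which encodes a transcription factor known from red pulp macrophages, was counted in macrophage-like cells at 54.7 and 33.0 CPM, while the haemoglobin scavenger receptor gene Cd163 had 1 and 0 UMIs.

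Tfrc encodes the transferrin receptor that brings iron into cells (ENSMUSG00000022797, chr16:32608920-32632794 on the plus strand). Plasmacytoid dendritic cell-like cells had the highest level, 83.6 CPM in the WT NOD library (25 UMIs; interval 54.1 to 123) and 90.1 CPM in the library labelled NOD.Cxcl16-/- (27 UMIs; 59.4 to 131). Cycling T cells had 34.2 and 29.3 CPM, resting B-like cells 21.8 and 21.1 CPM, resting T cells 20.8 and 20.4 CPM and cDC2-like cells 19.1 and 23.4 CPM. Natural killer (NK)-like cells had 35.7 and 17.5 CPM, but on 17 and 8 UMIs. Macrophage-like cells were among the lowest, with 5.21 and 7.29 CPM (4 and 15 UMIs), next to monocyte-like cells with 6.70 and 6.07 CPM, plasma cell-like cells with 3.99 and 7.74 CPM and migratory dendritic cell-like cells with 2.64 and 5.92 CPM. These 4 low types cannot be ordered at such counts. In plasmacytoid dendritic cell-like cells, Tfrc was 4.37 and 3.85 times its level in cDC2-like cells. Tfrc and Blvrb were the 2 members of 5 compared that were 2-fold or more higher than in cDC2-like cells in both libraries, where 10.5% of genes were.

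Dividing lymphocytes were compared with resting ones of the same class, a cell counting as cycling with 2 or more of 10 cell-cycle markers and as resting with none. Pooled cycling T cells had 1.65 times (1.43 to 1.90) and 1.44 times (1.23 to 1.68) the Tfrc of resting T cells. None of 5 members compared was 1.5-fold or more higher in both libraries, where 10.7% of genes were, because the second Tfrc value fell just short. In CD8 T-like cells Tfrc was 34.5 against 19.02 CPM (1.81 times, 1.46 to 2.26) and 29.7 against 17.9 CPM (1.66 times, 1.28 to 2.16), and it was the 1 member of 5 past the rule, beside 12.7% of genes. CD4 T-like cells gave 1.45 and 1.16 times, with 0 of 5 members past the rule beside 12.1% of genes. Treg-like cells gave 1.64 times (0.752 to 3.64) and 1.65 times (1.0 to 2.77), with Tfrc the 1 member higher beside 10.4% of genes and Hmox1 and Fth1 the 2 lower beside 13.9%. The Hmox1 ratios there, 0.592 (0.208 to 1.502) and 0.606 (0.262 to 1.33), have intervals that include 1. Cycling B-like cells had 14.9 and 24.7 CPM of Tfrc, which was not higher than resting B-like cells in both libraries. Cycling cells were deeper than resting ones, with medians of 10366 and 16039.5 UMIs in pooled cycling T cells against 3755 and 4282. The share of T cells with a Tfrc UMI at 2000 UMIs per cell was 4.12% and 5.08% for cycling against 4.14% and 3.72% for resting cells (24.6% and 33.4% against 7.47% and 8.76% before thinning). In CD8 T-like cells the thinned shares were 4.63% and 5.19% for cycling against 3.32% and 3.65% for resting cells, and in CD4 T-like cells 2.19% and 5.84% against 5.02% and 3.47%, so the order of the shares differed between classes.

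The members can be set against all genes for the contrast of macrophage-like with resting T cells. Hmox1, Blvrb, Fth1 and Ftl1 were 2-fold or more higher in macrophage-like cells of both libraries, 4 of the 5 members that could be compared, where 13.1% of 13454 genes were. The ratios were 15 (12.1 to 18.6) and 14.8 (12.4 to 17.7) for Blvrb, 7.18 and 7.39 for Fth1, and 5.49 and 5.93 for Ftl1. Tfrc was the 1 member 2-fold or more lower, beside 19.1% of genes. Against monocyte-like cells no member passed the 2-fold rule, which is read with 1 CPM added, in both libraries, where 1.97% of genes were higher and 4.6% lower in monocyte-like cells. Blvrb lay at that edge, 2.14 and 2.001 times as high in macrophage-like cells without the added CPM. Resting B-like cells compared with macrophage-like cells had 1 member of 5 higher, Tfrc, beside 17.9% of genes, and 3 lower, Hmox1, Fth1 and Ftl1, beside 14.9%.

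In resting T cells 0 of 5 members differed 1.5-fold or more between the libraries, where 4.05% of 12889 genes did, and in cycling T cells 0 of 5, where 6.63% did. Cycling B-like cells had 2 of 5 members higher in the library labelled NOD.Cxcl16-/-, Hmox1 (3 and 20 UMIs; 2.47 times, 0.731 to 13.0) and Tfrc (12 and 54 UMIs; 1.66 times, 0.879 to 3.42), beside 16.5% of genes, and both intervals include 1. NK-like cells had Blvrb higher beside 11.3% of genes and Tfrc lower beside 8.08%, each on 20 to 25 UMIs over both libraries and with an interval that includes 1. Hmox1 in the 3 myeloid types and in cycling CD8 T-like cells, and Fth1 in plasma cell-like cells, were thus the differences of 1.5-fold or more whose counting interval lay off 1. Each of these but Hmox1 in macrophage-like cells fell short of the rule under at least 1 alternative. The counting intervals leave out variation between cells, so an interval off 1 does not show that cells differ between the libraries. The top 5 monocyte-like cells held 9 of 13 Hmox1 UMIs in the WT NOD library and 23 of 31 in the other.

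**Figure D4:**
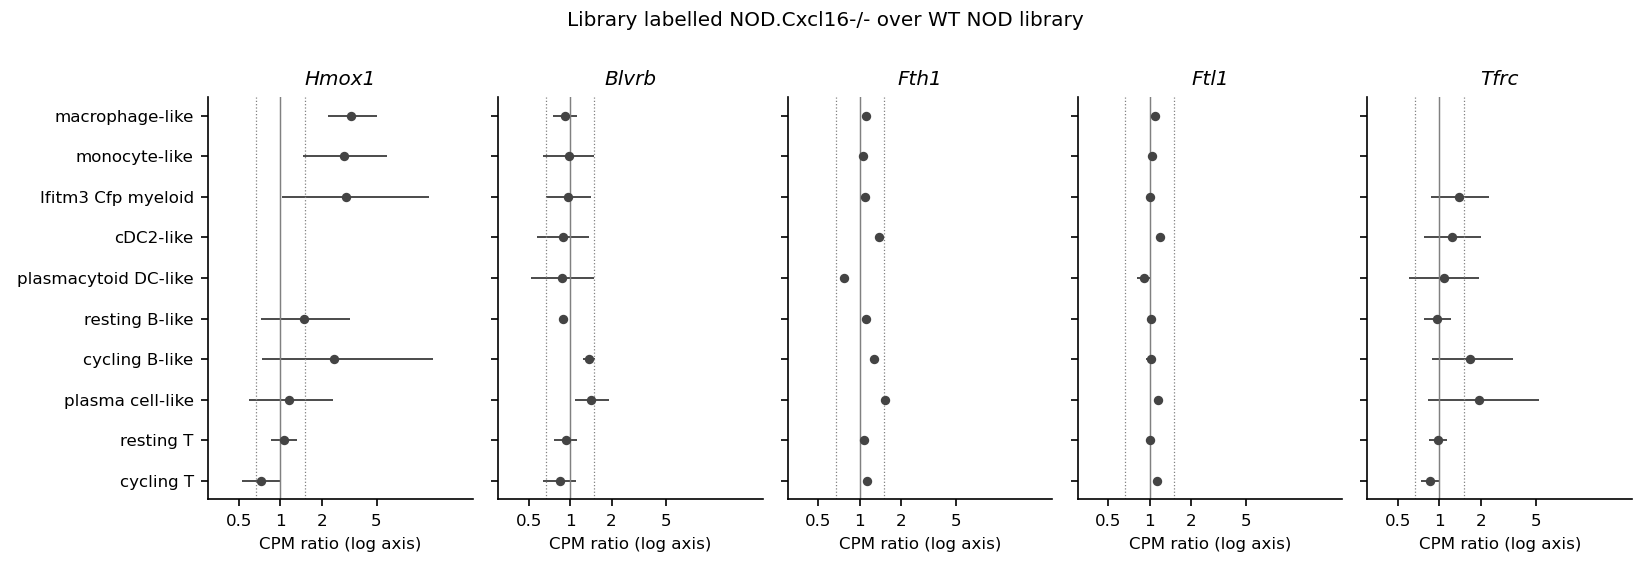
Ratio of CPM in the library labelled NOD.Cxcl16-/- to CPM in the WT NOD library, on a log axis, for 5 members in 10 types or pools of types with at least 20 UMIs over both, with exact 95% counting intervals and dotted lines at 1.5-fold. Hmox1 in macrophage-like cells lies at 3.28, while Ftl1 lies near 1.

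The rest of the pathway was described with 50 other iron and haem genes in macrophage-like cells. Against resting T cells, 14 of 40 compared were 2-fold or more higher in both libraries and 2 lower, Slc39a8 and Cpox, beside 13.1% and 19.1% of all genes. The 14 were spread over haem sensing and regulation (Bach1, Nfe2l2, Spic), haem and haemoglobin handling (Lrp1, Flvcr1, Hp), iron uptake (Trf, Steap3, Slc11a1, Slc11a2), export and systemic control (Cp, Hfe) and mitochondrial use (Iscu, Alas1). Some of these calls rest on few macrophage-like UMIs: 2 and 6 for Steap3, and 71 and 3 for Hp. The lower calls rest on 0 and 2 for Slc39a8 and 3 and 11 for Cpox. Slc11a1, the metal transporter of phagosomes, had 67.7 and 83.5 CPM in macrophage-like against 0.057 and 0.238 CPM in resting T cells. Hfe, a partner of the transferrin receptor that tunes iron sensing, had 71.6 and 71.9 against 3.97 and 1.49 CPM. Nfe2l2, which encodes the stress regulator NRF2, had 307 and 372 CPM, and Bach1, a haem-binding repressor of Hmox1, had 65.1 and 89.9 CPM. Hmox2, the constitutive haem oxygenase, had 66.4 and 80.1 CPM. The iron chaperones of the cytosol had 191 and 165 CPM (Pcbp1) and 151 and 128 CPM (Pcbp2), and in mitochondria Iscu, the scaffold of iron-sulphur clusters, had 148 and 118 CPM and Alas1, the first enzyme of haem synthesis, 69.0 and 52.5 CPM.

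Between the libraries, 34 of these 50 genes could be compared in macrophage-like cells; 3 were 1.5-fold or more higher in the library labelled NOD.Cxcl16-/- (Trf, Slc48a1, Ireb2) and 5 lower (Hp, Slc39a14, Spic, Cp, Flvcr1), beside 11.1% and 9.61% of all genes. Their median log2 difference was -0.04, beside -0.01 over all 8071 genes. The 3 with the largest difference were Hp, Trf and Slc39a14. Hp, haptoglobin, had 92.4 and 1.46 CPM, but 70 of its 71 UMIs in the WT NOD library came from 1 cell, and without it the level was 1.32 CPM. Trf, transferrin, had 41.6 and 105 CPM in 22 and 79 cells (2.53 times, 1.74 to 3.79). Slc39a14, an importer of iron not bound to transferrin, had 14.3 and 5.34 CPM on 11 UMIs in each library (0.373 times, 0.147 to 0.949). Among the genes past the rule, the ratio intervals of Slc48a1 (0.927 to 3.098), Ireb2 (0.688 to 4.314) and Cp (0.355 to 1.163) include 1. Hmox1 is also a target of NRF2, so 14 other NRF2-target and redox genes were set beside it: of 12 compared, 3 were 1.5-fold or more higher (Srxn1, Mafg, Gclc) and Txn1 was lower, with a median log2 difference of 0.26. The interval of the Gclc ratio (0.935 to 3.42) includes 1. Srxn1 had 0 and 24 UMIs, and the counting interval of its ratio starts at 2.25 and has no upper limit. Set against a floor of 3 UMIs in the WT NOD library, its level was 2.99 times as high. Of the more abundant genes, some lay close together between the libraries, with 80.7 and 92.8 CPM for Txnrd1, 88.5 and 75.3 CPM for Slc7a11 and 621 and 595 CPM for Prdx1. Sqstm1 was higher in the library labelled NOD.Cxcl16-/- but short of the 1.5-fold rule, with 312 and 423 CPM, while Txn1 had 1035 and 677 CPM.

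**Figure D5:**
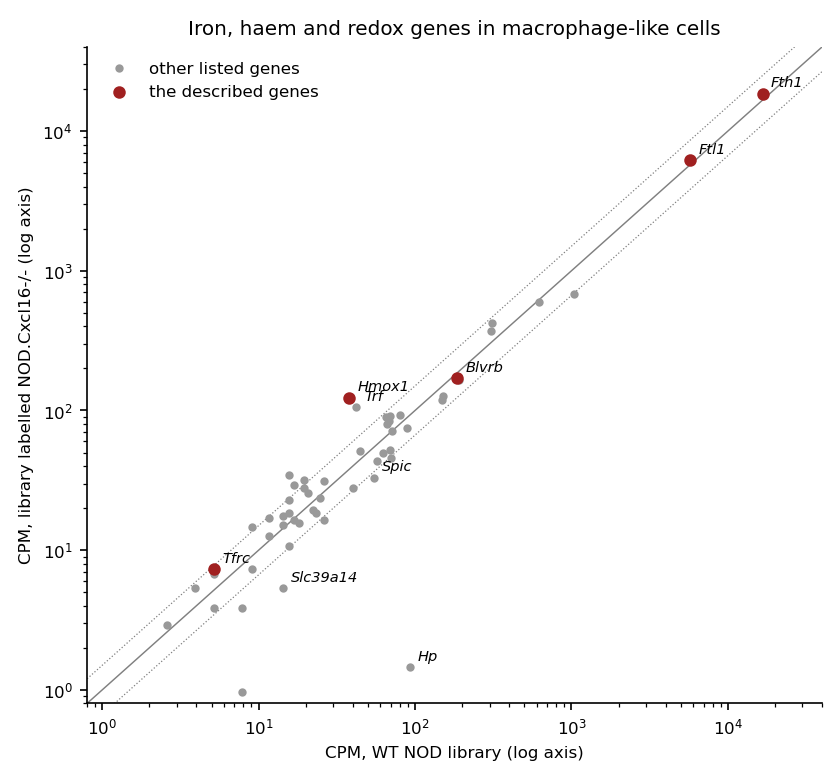
Macrophage-like CPM in the library labelled NOD.Cxcl16-/- against that in the WT NOD library, both axes log, for the 56 of 70 member, pathway and redox genes with a UMI in both libraries, with the line of equality and dotted lines at 1.5-fold. Hmox1 (37.7 and 124 CPM), Trf and Hp lie off the diagonal, and the ferritin genes lie near it at the top.

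Across the 19 types the members did not follow 1 pattern. Over log2 levels averaged between the libraries, Fth1 and Ftl1 were the closest pair (Pearson r 0.799, Spearman rho 0.768), and Ftl1 and Tfrc the most opposed (-0.558 and -0.495). The 19 types share libraries, cell numbers and depth, so these are descriptions. Among 8332 candidate genes, the 3 most like Hmox1 were Frrs1 (r 0.859), which encodes a ferric reductase, Pex2 (0.745) and Bscl2 (0.734). Blvrb was most like Fcgr2b (0.879), Pkig (0.869) and Lipc (0.867), and Fth1 most like Prdx5 (0.95), Atp6v1a (0.939) and Tmem86a (0.924). Ftl1 was most like Cd302 (0.958), its copy Ftl1-ps1 (0.949) and Cxcl1 (0.949), and Tfrc most like Hnrnpul1 (0.887), Hnrnpl (0.881) and Smc6 (0.879). Slc40a1 had too few UMIs for such a comparison.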

How the data were processed

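The authors deposited raw UMI counts per gene and barcode, as the file headers and whole-number values show, made with Cell Ranger 7.0.1 and mm10, per the submitters' processing notes; whether introns were counted is not given in the sources used here. Barcodes with at least 500 genes and at most 10% mitochondrial UMIs were kept, and simulated-neighbour doublet scores removed 1331 and 839 barcodes, at 0.8% per 1000 barcodes. Cells were assigned by marker share per 10000 UMIs and marker number. Cells with 1 cycling marker (1217 and 1035) were neither cycling nor resting. UMIs were summed per type and library as CPM, with exact Poisson and conditional ratio intervals, and log2 ratios used 1 CPM added. A gene needed 20 UMIs to be compared, and sizes were read at 1.5-fold between libraries and between cycling and resting cells and at 2-fold between other types. Members and lists were chosen with earlier results of these data known, and gate thresholds were set after the data were seen. Besides the members, the text names pathway and redox genes of 50 CPM or more in macrophage-like cells of both libraries, the 3 with the largest difference, the 3 genes most correlated with each member, and, chosen after their values were seen, genes past a fold rule, Cxcl16, Cd163 and Spic. A gene that met the rule is not reported here. Scripts were tested on simulated data and used Python 3.11.15, numpy 2.4.6 and scipy 1.17.1. Alternatives changed filters, gates, scaling, weighting and thinning.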

Additional observations from a re-analysis of the deposited data

How the results depend on the processing

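Each genotype had 1 library, so no replicate could be left out and every interval covers counting error alone. No paired analysis was possible because each group has a single library. In macrophage-like cells the count of members that differed 1.5-fold or more between the libraries was 1, and it was 2 with markers counted in thinned cells and with mixed barcodes kept (Tfrc added in each), and 2 in cells with no T-cell or B-cell marker UMI (Blvrb added), an alternative chosen after seeing the data. The other counts named for macrophage-like, resting T and cycling T cells stayed within 1.5 times under the alternatives run, with 3 in place of 4 members higher in macrophage-like than in resting T cells at a 4-fold rule. Over 13 alternatives, 1183 values of 91 member ratios were recomputed: 1025 lay within the counting interval, 156 outside it with no called value reversed, and 2 reversed. The reversed values were a log2 ratio of -1.76 for Hmox1 in the Ifitm3 Cfp myeloid cells with markers counted in thinned cells, and -1.66 for Tfrc in plasma cell-like cells thinned to 2000 UMIs; the cause was not tested. Hmox1 in macrophage-like cells ranged from 1.01 to 2.20 in monocyte-like cells from 0.06 to 1.52 and in cycling CD8 T-like cells from -0.66 to -0.23. Leaving out the 45 barcodes found in both libraries reversed none of the 10 differences of 1.5-fold or more. Depth limited Slc40a1 in the small types, Tfrc in macrophage-like cells and Hmox1 in dendritic and cycling B-like cells.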
